A study of Homo sapiens with 12 samples.

Results

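Semaphorins are guidance proteins, plexins are their main receptors and neuropilins are co-receptors of the secreted semaphorins. The genes described here are all those with a single-symbol probe set whose symbol begins with SEMA and a digit or with PLXN, together with NRP1 and NRP2, each read from 1 probe set, whichever was brightest on average. This gave 30 genes, 19 semaphorins, 9 plexins and 2 neuropilins, of the 18404 genes with a single symbol; SEMA4C was not analysed here. RNA of 2 established human melanoma cell lines was hybridised to 12 arrays of the Affymetrix Human Gene 1.0 ST type. The groups were A375 with vemurafenib, A375 with DMSO, A2058 with vemurafenib and A2058 with DMSO, with 3 arrays each. Every sample is labelled BRAF V600E, the kinase mutation that vemurafenib is directed at, and DMSO is the drug's solvent. The treatment text gives 1 µM vemurafenib for 72 h, renewed every 24 h, with an equal volume of DMSO for the controls; this text is given for A2058 too, although the cells it names are A375p. Each genetic background is a single line, and the labels do not say whether replicates were separate cultures, so the p-values below measure the spread between these arrays, which may be technical. In RNA from a whole culture, fewer cells that express a gene and less of its RNA per cell cannot be told apart.

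Semaphorins share an extracellular sema domain, and they steer axons, blood vessels and neural crest cells, the lineage from which melanocytes come. Class 3 semaphorins are secreted and mostly bind a neuropilin that is held in a complex with a class A plexin, whereas classes 4, 5 and 6 span the membrane and class 7 is tethered to it by a lipid anchor. A plexin bound by its ligand acts through its own cytoplasmic domain, which inactivates small GTPases of the Ras and Rap families, so that adhesion and the actin skeleton change. Neuropilins also bind vascular endothelial growth factors.

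Values are the authors' deposited log2 levels, and changes are differences of log2 group means ± SE from a limma fit over all genes, called at an adjusted p under 0.05. Arrays of a group correlated at r = 0.9978 to 0.9989 across genes, except that A375 vemurafenib replicate 1 reached 0.9941 and 0.9939 with its other 2 arrays, so counts are also given without it. The drug's action was visible in both lines, since the ERK outputs DUSP6, SPRY4, ETV5 and CCND1 fell by log2 changes of -1.33 to -3.91 in A375 and of -1.95 to -3.00 in A2058. Melanocytic markers were present in A2058, where 9 of 9 measured markers with vemurafenib and 8 of 9 with DMSO had log2 levels above the median gene (6.06). In A375 this held for 5 of 9 with either treatment, and the pigment enzyme TYR averaged a log2 level of 4.57 with vemurafenib and 4.57 with DMSO. No endothelial marker of 8 was above the median gene in any group. Of 8 fibroblast markers, 3 were called up and 1 down in A375, with LUM at a log2 change of 2.15 and a list median of 0.021. Their summed log2 level was 42.48 to 43.41 in A375 vemurafenib, against 40.30 to 40.91 in A375 DMSO. That of 9 melanocytic markers was 65.17 to 65.75 in A375 vemurafenib, against 62.83 to 63.44 in A375 DMSO (4 called up and 2 down, with S100B at a log2 change of 1.01 and MITF at 0.73), and 87.89 to 88.06 in A2058 vemurafenib, against 77.24 to 77.77 in A2058 DMSO (7 called up). In A2058, 3 of these melanocytic markers rose at least 2-fold, with a list median log2 change of 0.73 and a highest of 3.26. Other marker sums moved mainly with 1 gene each. The sum of 7 epithelial markers was 37.62 to 38.94 in A375 vemurafenib against 40.35 to 41.07 in A375 DMSO (3 called, KRT18 at a log2 change of -1.79, list median -0.11), and 36.78 to 37.17 in A2058 vemurafenib against 38.24 to 38.69 in A2058 DMSO (KRT18 alone called, at -1.41, list median 0.0034). For 7 blood and immune markers it was 38.03 to 38.42 in A2058 vemurafenib against 39.79 to 40.22 in A2058 DMSO (2 called, LYZ at a log2 change of -2.12, list median 0.021). For 7 neural and glial markers it was 41.59 to 41.94 in A2058 vemurafenib against 40.25 to 40.56 in A2058 DMSO (2 called, MBP at a log2 change of 1.66, list median 0.029). The part of these markers in the results below was not tested.

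In A375, vemurafenib raised the secreted semaphorins SEMA3C and SEMA3E, the co-receptor NRP2 and the receptor PLXNB3, and lowered SEMA3A, SEMA6B, PLXNA1, PLXNA3 and NRP1. In all, 16 of the 30 genes were called in A375, where 37.0% of all genes were called. Of these, 5 were up, a direction called for 17.7% of all genes, and 11 were down, called for 19.3%. A change of at least 2-fold was called for 3 of them, against 4.20% of all genes. In A2058, PLXNC1, SEMA6A, SEMA6D, PLXNA1, PLXNB1 and PLXND1 rose, and SEMA6B, SEMA3A, NRP1, SEMA3B and SEMA7A fell. There 15 of the 30 were called (27.1% of all genes), 10 up (14.6%) and 5 down (12.5%), and 5 changed at least 2-fold (1.98% of all genes). The median log2 change was -0.044 over the 30 genes and 0.0042 over all genes in A375, and 0.011 and 0.0064 in A2058. Without A375 vemurafenib replicate 1, the counts in A375 were 6 up and 12 down, while 7785 of all genes were called there, against 6816 with it.

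The treated arrays did not overlap the DMSO arrays for 17 of the 30 genes in A375 (43.6% of all genes) and for 20 in A2058 (40.6%). SEMA3C and SEMA4B rose in both lines, as did 6.52% of all genes, although the SEMA3C call in A2058 was lost on leaving out some arrays. NRP1, SEMA3A, SEMA3B, SEMA6B and SEMA7A fell in both, as did 6.85%. PLXNA1, PLXND1 and SEMA6A were called in opposite directions, as were 4.41%. Called in neither line, like 53.6% of all genes, were PLXNA4, PLXNB2, SEMA3D, SEMA3F, SEMA3G, SEMA4A, SEMA4D, SEMA4F and SEMA5B.

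**Figure D1:**
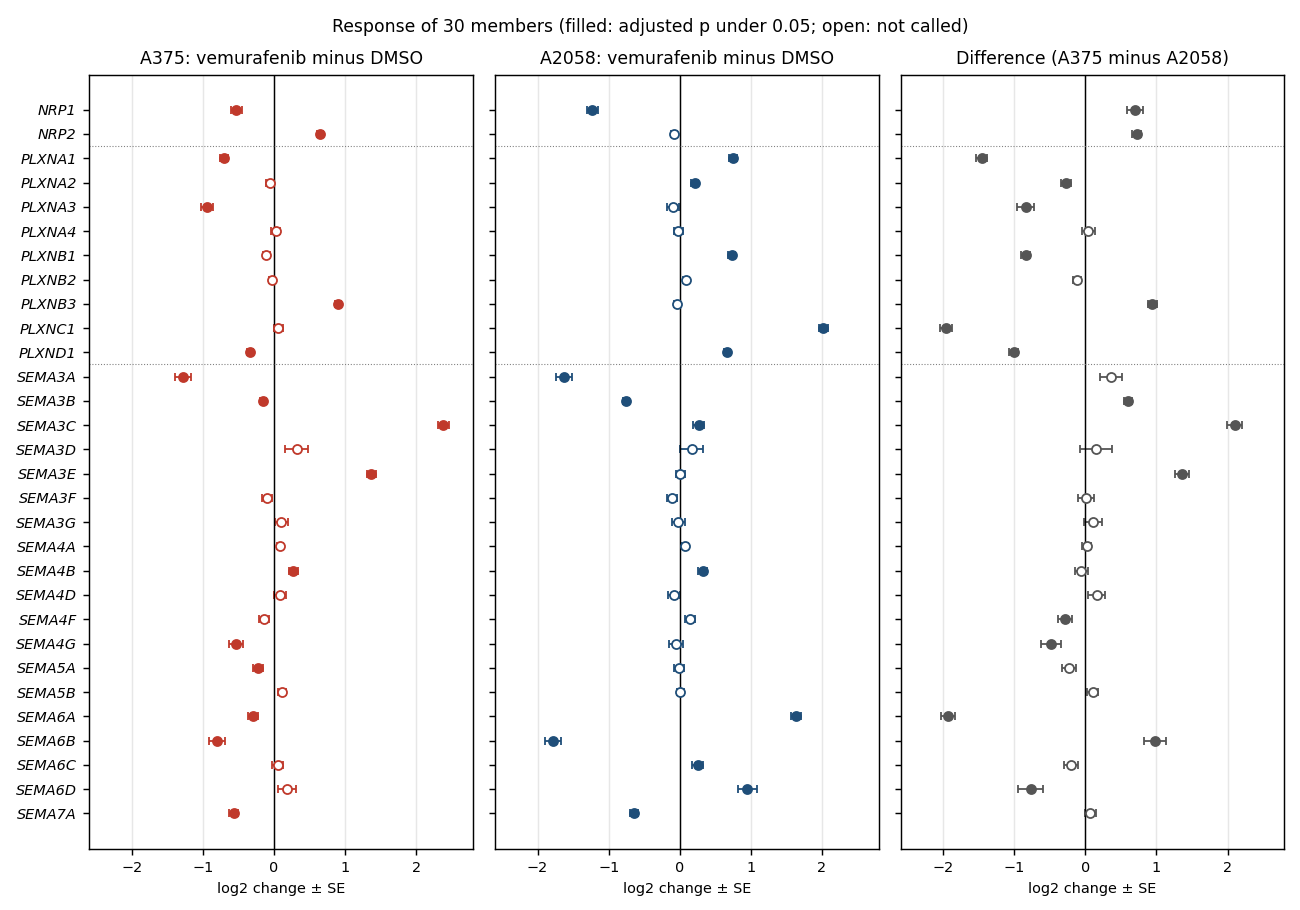
Log2 change ± SE of each of the 30 genes with vemurafenib minus DMSO in A375 (left) and A2058 (middle), and, at right, how far the A375 response exceeds that of A2058. Filled points have an adjusted p under 0.05; the points of PLXNA1, PLXND1 and SEMA6A lie on opposite sides of 0 in the lines.

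Whether the response itself differed between the lines was tested with an interaction term. It was called for 17 of the 30 genes (29.5% of all genes), 7 with the higher response in A375 (13.1%) and 10 with the higher response in A2058 (16.4%). Higher here means the more positive log2 change, so a smaller fall counts as higher. The difference was at least 2-fold for 6 of the 17, against 4.19% of all genes, and these were SEMA3C, SEMA3E, SEMA6A, PLXNA1, PLXNC1 and PLXND1. NRP2 was below 2-fold with the probe set used (log2 difference 0.72) and above it with a further one (1.07). The 17 called genes were 7 of 9 plexins, both neuropilins and 8 of 19 semaphorins. The difference between these shares was not tested. Without A375 vemurafenib replicate 1, the counts were 9 and 12, while 6638 of all genes were called, against 5434 with it.

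**Figure D2:**
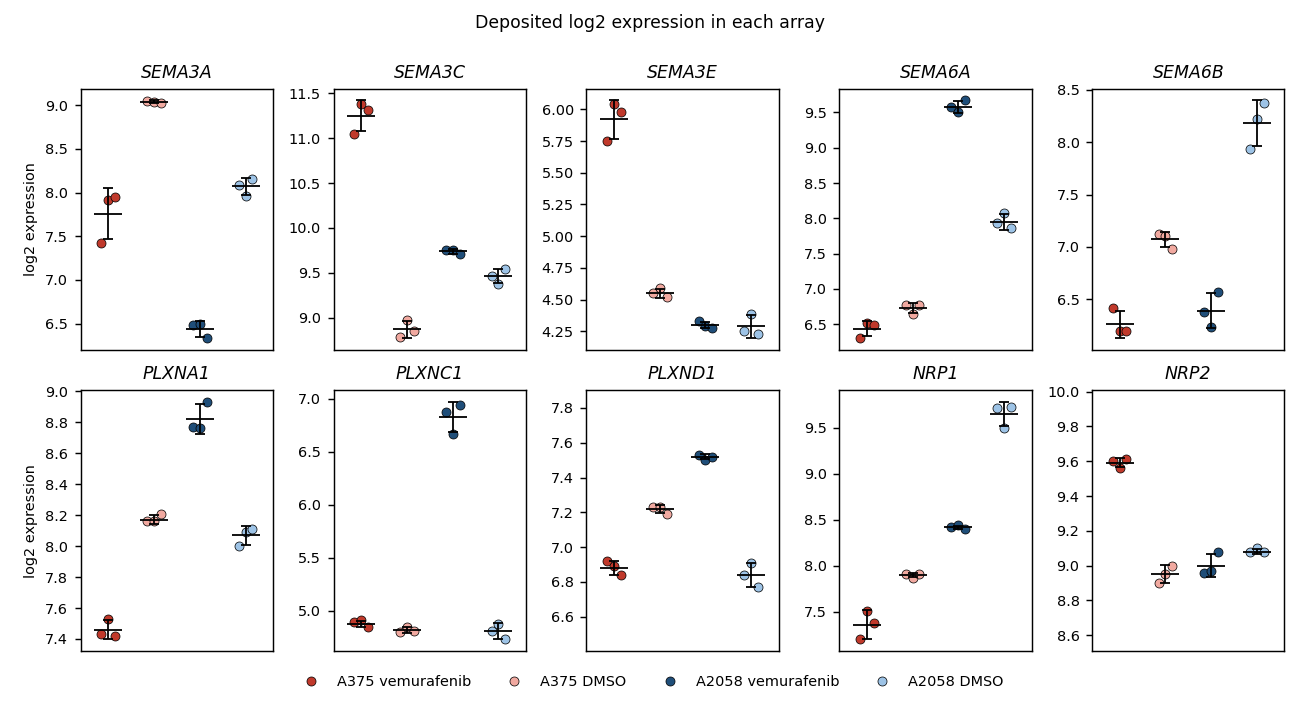
Deposited log2 expression of 10 genes in each array (y axis, 1 panel per gene; panels have their own range), by group from left to right as A375 vemurafenib, A375 DMSO, A2058 vemurafenib and A2058 DMSO. Points are arrays, and bars show the mean and SD of 3; SEMA3C and SEMA3E stand apart in A375 vemurafenib, and PLXNC1 and SEMA6A in A2058 vemurafenib.

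Among the secreted class 3 semaphorins, SEMA3C, a ligand that binds both neuropilins, had log2 levels of 11.05, 11.38 and 11.31 in A375 vemurafenib, against 8.79, 8.97 and 8.85 in A375 DMSO. In A2058 its log2 levels were 9.76, 9.75 and 9.71 with vemurafenib, against 9.47, 9.38 and 9.54 with DMSO. All treated arrays lay above the DMSO arrays in both lines, with a wide gap in A375 and a narrow one in A2058. The log2 change was 2.38 ± 0.077 in A375 (5.2-fold, limma adjusted p = 7.63e-11) and 0.27 ± 0.077 in A2058 (1.21-fold, adjusted p = 0.0182), with a difference of responses of 2.10 ± 0.11 (adjusted p = 1.72e-08). Centring arrays on their median ended the A2058 call (adjusted p = 0.0671), and so did leaving out A2058 vemurafenib replicate 1 (0.0597) or 2 (0.0557) or the second A2058 DMSO array (0.0757); over all left-out arrays the adjusted p ran from 0.00122 to 0.0757.

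SEMA3E differs from its class in that it binds PLXND1 without needing a neuropilin. Its log2 levels were 5.75, 6.04 and 5.98 in A375 vemurafenib, against 4.55, 4.59 and 4.52 in A375 DMSO. In A2058 they were 4.33, 4.29 and 4.28 with vemurafenib, against 4.25, 4.39 and 4.23 with DMSO, so that 9 of 12 arrays sat near the lower end of the scale and A375 vemurafenib stood alone. SEMA3E rose in A375 by 1.37 ± 0.069 on the log2 scale (2.58-fold, adjusted p = 5.36e-09), while its log2 change in A2058 was 0.01 ± 0.069 (adjusted p = 0.956). The responses differed by 1.36 ± 0.098 (log2, adjusted p = 3.34e-07).

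SEMA3A, the class member first known for collapsing growth cones, went the other way. It had log2 levels of 7.42, 7.91 and 7.95 in A375 vemurafenib, against 9.05, 9.04 and 9.02 in A375 DMSO. In A2058 it had 6.48, 6.50 and 6.34 with vemurafenib, against 8.09, 7.96 and 8.16 with DMSO, on the same log2 scale. Every treated array lay below the DMSO arrays of its line. The log2 change was -1.28 ± 0.11 in A375 (2.42-fold, adjusted p = 1.25e-06) and -1.63 ± 0.11 in A2058 (3.1-fold, adjusted p = 2.39e-07). The difference of responses was not called (0.36 ± 0.16 on the log2 scale, adjusted p = 0.127), but leaving out the first A375 vemurafenib array, the one with the lowest treated value, brought it past the threshold (0.53, adjusted p = 0.000248).

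SEMA3B, a secreted semaphorin of chromosome 3 studied as a growth suppressor, fell in both lines, with a log2 change of -0.16 ± 0.043 in A375 (adjusted p = 0.0109) and of -0.76 ± 0.043 in A2058 (adjusted p = 3.74e-08). The fall was larger in A2058 (difference of responses 0.60 ± 0.061, log2, adjusted p = 7.56e-06). SEMA3D had log2 levels of 5.30, 6.11 and 6.0 in A375 vemurafenib, against 5.63, 5.46 and 5.36 in A375 DMSO, so that replicate 1 lay below the controls and the other treated arrays above them. Its log2 change in A375 was 0.32 ± 0.16 (adjusted p = 0.161) with all arrays and 0.57 without that array (adjusted p = 0.00011). SEMA3F, the ligand of NRP2, and SEMA3G were not called in either line, with log2 changes between -0.11 and 0.10. SEMA3A lies between SEMA3E and SEMA3D on chromosome 7, with no other protein-coding gene of the RefSeq table between them, and in A375 these neighbours had log2 changes of 1.37 (SEMA3E), -1.28 (SEMA3A) and 0.32 (SEMA3D).

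The promoters of the genes with a change of at least 2-fold in either line are shown where the RefSeq promoter table (GRCh38.p14, 250 bases before to 50 after the start) holds them; 26 of the 30 genes matched, and the others are NRP1, SEMA3A, SEMA6A and SEMA6B. Capitals mark matches, on either strand, to CACGTG (E-box), CATGTG (M-box core), TGANTCA (AP-1) or CCGGAAG (ETS), read 5′ to 3′ on the strand of the gene. The SEMA3C window lies at chr7:80922340-80922639 on the minus strand, the SEMA3E window at chr7:83649090-83649389 on the minus strand and the PLXNC1 window at chr12:94262369-94262668 on the plus strand.
SEMA3C: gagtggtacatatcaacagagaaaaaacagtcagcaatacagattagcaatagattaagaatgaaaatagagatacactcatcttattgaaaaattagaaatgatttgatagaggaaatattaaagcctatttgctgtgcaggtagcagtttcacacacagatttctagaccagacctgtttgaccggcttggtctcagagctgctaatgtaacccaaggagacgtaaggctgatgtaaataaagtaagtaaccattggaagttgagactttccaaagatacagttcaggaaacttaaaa
SEMA3E: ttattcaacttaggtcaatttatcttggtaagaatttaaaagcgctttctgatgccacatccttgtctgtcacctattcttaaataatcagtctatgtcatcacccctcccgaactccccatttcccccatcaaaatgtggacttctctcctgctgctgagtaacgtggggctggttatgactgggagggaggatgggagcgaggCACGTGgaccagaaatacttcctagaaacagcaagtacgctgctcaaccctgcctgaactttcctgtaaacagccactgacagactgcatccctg
PLXNC1: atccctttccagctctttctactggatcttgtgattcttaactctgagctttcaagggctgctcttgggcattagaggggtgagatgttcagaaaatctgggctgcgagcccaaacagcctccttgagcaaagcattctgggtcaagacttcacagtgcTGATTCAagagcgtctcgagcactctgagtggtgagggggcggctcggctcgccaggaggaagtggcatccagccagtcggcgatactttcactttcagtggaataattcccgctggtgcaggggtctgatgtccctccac

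The SEMA3E window holds an E-box at position -45 from the start, the PLXNC1 window holds TGATTCA, an AP-1 match, at position -91, and none of the searched letters stand in the SEMA3C window. Over the 26 matched promoters, an E-box stood in 3 (11.5%, against 7.43% of all 27305 promoters of that length), namely those of SEMA3E, SEMA4D and SEMA6D. The M-box core stood in 4 (15.4%, against 11.2%), the AP-1 letters in 1 (3.85%, against 7.76%) and the ETS letters in 2 (7.69%, against 10.7%), those of PLXNB1 and SEMA4B. Base composition differed widely, with a G and C share of 36.0% in the SEMA3C window, 47.3% in that of SEMA3E and 53.7% in that of PLXNC1, against a median of 58.3% over all promoters. A match describes the letters only.

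Among the membrane-bound semaphorins, class 6, whose members bind class A plexins, held the largest changes. SEMA6A had log2 levels of 6.31, 6.52 and 6.49 in A375 vemurafenib, against 6.78, 6.65 and 6.77 in A375 DMSO. In A2058 it had 9.58, 9.50 and 9.67 with vemurafenib, against 7.93, 8.07 and 7.86 with DMSO, also as log2 levels. The treated arrays were thus all below the controls in A375 and all above them in A2058. SEMA6A fell in A375 by 0.30 ± 0.071 on the log2 scale (log2 change -0.30, 1.23-fold, adjusted p = 0.00474) and rose in A2058 by 1.63 ± 0.071 (3.09-fold, adjusted p = 3.12e-09), a difference of responses of -1.93 ± 0.10 (adjusted p = 1.74e-08).

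SEMA6B, a ligand of PLXNA4, had log2 levels of 6.41, 6.19 and 6.19 in A375 vemurafenib, against 7.12, 7.10 and 6.98 in A375 DMSO. The A2058 levels were 6.38, 6.23 and 6.57 with vemurafenib, against 7.94, 8.22 and 8.38 with DMSO (log2). Both lines ended at similar levels with the drug, while the DMSO levels were higher in A2058. SEMA6B had a log2 change of -0.80 ± 0.11 in A375 (1.75-fold, adjusted p = 6.45e-05) and -1.78 ± 0.11 in A2058 (3.45-fold, adjusted p = 8.39e-08), and these differed by 0.98 ± 0.16 (adjusted p = 0.00034). SEMA6D, which binds PLXNA1, rose in A2058 by a log2 change of 0.95 ± 0.13 (1.93-fold, adjusted p = 0.000114), and in A375 its log2 change was 0.18 ± 0.13 (adjusted p = 0.355). SEMA6C had a log2 change of 0.25 ± 0.074 in A2058 (adjusted p = 0.0219), a call that ended on leaving out A2058 vemurafenib replicate 1 (0.064) or 3 (0.0824) or the third A2058 DMSO array (0.094), and of 0.05 ± 0.074 in A375 (adjusted p = 0.684).

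SEMA7A, the lipid-anchored ligand of PLXNC1 and of beta 1 integrins, fell by nearly the same amount in both lines. Its log2 levels were 7.98, 7.99 and 8.01 in A375 vemurafenib, against 8.50, 8.55 and 8.63 in A375 DMSO, and 6.54, 6.56 and 6.75 in A2058 vemurafenib, against 7.26, 7.31 and 7.20 in A2058 DMSO. The log2 change was -0.57 ± 0.058 in A375 (adjusted p = 4.53e-06) and -0.64 ± 0.058 in A2058 (adjusted p = 2.82e-06), with a difference of 0.07 ± 0.082 that was not called (adjusted p = 0.634).

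Of the class 4 and class 5 semaphorins, SEMA4B rose in both lines, with a log2 change of 0.27 ± 0.066 in A375 (adjusted p = 0.0058) and 0.32 ± 0.066 in A2058 (adjusted p = 0.00226). SEMA4G fell in A375 (log2 change -0.54 ± 0.099, adjusted p = 0.000648) and not detectably in A2058 (-0.05 ± 0.099, adjusted p = 0.825), with a called difference of -0.49 ± 0.14 (adjusted p = 0.0172). SEMA4F had log2 changes of -0.14 ± 0.068 in A375 and 0.14 ± 0.068 in A2058, called in neither line. The difference of its responses (-0.29 ± 0.097, log2, adjusted p = 0.0424) was at the edge of the threshold: leaving out any array but A375 vemurafenib replicate 1, A375 DMSO replicate 1 or A2058 DMSO replicate 2 ended the call, with adjusted p of 0.0735 to 0.0998. SEMA4A and the PLXNB1 ligand SEMA4D had log2 changes between -0.08 and 0.08. SEMA5A, a ligand of PLXNB3 with thrombospondin repeats, fell in A375 by a log2 change of -0.23 ± 0.070 (adjusted p = 0.0181), a call that ended with the A375 arrays alone (0.0716) or on leaving out A375 vemurafenib replicate 3 (0.0675) or A375 DMSO replicate 1 (0.0776) or 3 (0.0573). Its close relative SEMA5B was not called in either line (log2 changes 0.11 and 0.01).

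Of the receptors, PLXNC1, which binds SEMA7A and is known from melanocytes, changed most. It had log2 levels of 6.88, 6.67 and 6.94 in A2058 vemurafenib, against 4.81, 4.88 and 4.73 in A2058 DMSO. In A375 it had 4.89, 4.91 and 4.85 with vemurafenib, against 4.80, 4.85 and 4.81 with DMSO (log2). The 9 arrays outside A2058 vemurafenib all lay between 4.73 and 4.91, near the lower end of the scale. PLXNC1 rose in A2058 by 2.02 ± 0.063 on the log2 scale (4.07-fold, adjusted p = 1.64e-10), its log2 change in A375 was 0.06 ± 0.063 (adjusted p = 0.514), and the responses differed by -1.96 ± 0.089 (adjusted p = 4.83e-09).

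PLXNA1, the signalling partner of NRP1 for SEMA3A and a receptor of SEMA6D, moved in opposite directions. Its log2 levels were 7.43, 7.53 and 7.42 in A375 vemurafenib, against 8.16, 8.16 and 8.21 in A375 DMSO, and 8.77, 8.76 and 8.93 in A2058 vemurafenib, against 8.0, 8.09 and 8.11 in A2058 DMSO. The DMSO levels of the lines were close and the treated levels lay on either side of them. The log2 change was -0.71 ± 0.055 in A375 (1.64-fold, adjusted p = 3.37e-07) and 0.75 ± 0.055 in A2058 (1.68-fold, adjusted p = 4.03e-07), a difference of -1.46 ± 0.078 (adjusted p = 2.14e-08).

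PLXND1, the receptor of SEMA3E, showed the same crossing at a smaller size. Log2 levels were 6.92, 6.89 and 6.84 in A375 vemurafenib, against 7.23, 7.23 and 7.19 in A375 DMSO, and 7.53, 7.50 and 7.52 in A2058 vemurafenib, against 6.84, 6.91 and 6.77 in A2058 DMSO. Treated and control arrays did not overlap in either line. PLXND1 had a log2 change of -0.34 ± 0.043 in A375 (adjusted p = 3.38e-05) and 0.67 ± 0.043 in A2058 (adjusted p = 1.08e-07), and the difference was -1.01 ± 0.060 (adjusted p = 6.55e-08).

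The remaining plexins changed in a single line or in neither. PLXNB3, the receptor of SEMA5A, rose in A375 by a log2 change of 0.90 ± 0.044 (1.87-fold, adjusted p = 4.32e-09), with -0.04 ± 0.044 in A2058 (adjusted p = 0.609) and a difference of 0.94 ± 0.063 (adjusted p = 1.67e-07). PLXNA3, which works with neuropilins, fell in A375 by a log2 change of -0.94 ± 0.084 (1.92-fold, adjusted p = 1.45e-06), with -0.10 ± 0.084 in A2058 (adjusted p = 0.493) and a difference of -0.84 ± 0.12 (adjusted p = 0.000142). PLXNB1, the receptor of SEMA4D, rose in A2058 by a log2 change of 0.73 ± 0.046 (1.66-fold, adjusted p = 1.07e-07), with -0.11 ± 0.046 in A375 (adjusted p = 0.0926) and a difference of -0.84 ± 0.065 (adjusted p = 7.11e-07). PLXNA2, a receptor of SEMA6A, had a small called rise in A2058 (log2 change 0.21 ± 0.051, adjusted p = 0.00666), while PLXNB2 and PLXNA4 had log2 changes between -0.03 and 0.09 and were not called.

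The neuropilins differed from each other. NRP1, the co-receptor of SEMA3A and of VEGF, had log2 levels of 7.20, 7.51 and 7.38 in A375 vemurafenib, against 7.91, 7.87 and 7.91 in A375 DMSO, and of 8.42, 8.44 and 8.40 in A2058 vemurafenib, against 9.72, 9.50 and 9.73 in A2058 DMSO. All treated arrays lay below the controls of their line. NRP1 had a log2 change of -0.53 ± 0.076 in A375 (1.45-fold, adjusted p = 9.34e-05) and -1.23 ± 0.076 in A2058 (2.35-fold, adjusted p = 8.57e-08), and the fall was larger in A2058 (difference of responses 0.70 ± 0.11, log2, adjusted p = 0.000269).

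NRP2, the co-receptor of SEMA3F and SEMA3C, had log2 levels of 9.60, 9.56 and 9.61 in A375 vemurafenib, against 8.90, 8.95 and 9.0 in A375 DMSO, and of 8.96, 8.97 and 9.08 in A2058 vemurafenib, against 9.08, 9.10 and 9.08 in A2058 DMSO. A375 vemurafenib stood above the other 9 arrays. NRP2 rose in A375 by a log2 change of 0.64 ± 0.043 (1.56-fold, adjusted p = 8.86e-08), and its log2 change in A2058 was -0.08 ± 0.043 (adjusted p = 0.219), with a difference of 0.72 ± 0.061 (adjusted p = 1.48e-06). A further NRP2 probe set gave log2 changes of 0.89 ± 0.050 in A375 (adjusted p = 1.67e-08) and -0.18 ± 0.050 in A2058 (adjusted p = 0.0193), the same signs, with the second past the threshold. Its difference of responses was 1.07 ± 0.071 (adjusted p = 1.73e-07).

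Set beside a known receptor, the ligands and receptors moved together in some pairs and apart in others. SEMA3A and NRP1 fell in both lines. SEMA3A and PLXNA1 both fell in A375, but in A2058 the ligand fell and the receptor rose. SEMA3E rose in A375, where PLXND1 fell; in A2058 only the receptor was called. SEMA7A fell in A2058, where PLXNC1 rose. SEMA6D and PLXNA1 both rose in A2058. SEMA3C and NRP2 both rose in A375, while NRP1, which SEMA3C also binds, fell in both lines and SEMA3C rose in both. The SEMA3C rise in A2058 was small (log2 change 0.27), and its call was lost on leaving out some arrays. SEMA5A fell in A375, where PLXNB3 rose, but the SEMA5A call was lost on leaving out some arrays. SEMA6A and PLXNA2 both rose in A2058. The changes of SEMA5A in A375 (-0.23) and PLXNA2 in A2058 (0.21) were small. Their log2 levels there, 4.51 to 4.98 for SEMA5A and 4.49 to 4.79 for PLXNA2, lay near the lower end of the scale. For SEMA3F and NRP2, SEMA4D and PLXNB1, and SEMA6A and PLXNA4, at most 1 of the pair was called in either line. These pairs share genes, so they are not independent, and binding was not measured.

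**Figure D3:**
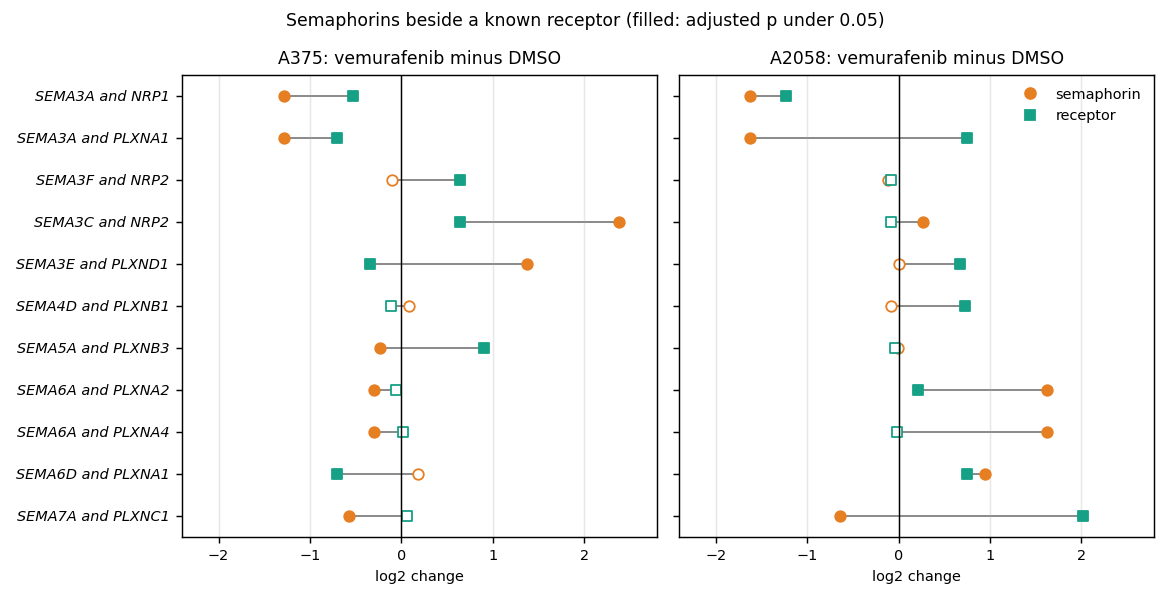
Log2 change with vemurafenib minus DMSO of a semaphorin (circle) and of a known receptor or co-receptor (square), joined by a line, in A375 (left) and A2058 (right); filled symbols have an adjusted p under 0.05. In A2058 the SEMA7A symbol lies at -0.64 and that of PLXNC1 at 2.02.

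The lines themselves were compared next, with the drug and without it; line and any difference in processing between the lines cannot be told apart. With vemurafenib, 21 of the 30 genes differed between A375 and A2058 (46.9% of all genes), 11 higher in A375 (22.7%) and 10 lower (24.2%). With DMSO, 19 differed (46.4%), 11 higher (23.9%) and 8 lower (22.5%). Both counts of genes higher in A375 include SEMA4D, for which a further probe set gave the opposite sign. Differences of at least 4-fold were called for SEMA5A, SEMA6A and SEMA6D with vemurafenib, against 1.91% of all genes, and for SEMA5A with DMSO, against 1.45%.

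SEMA5A had log2 levels of 4.80, 4.74 and 4.51 in A375 vemurafenib, against 8.59, 8.69 and 8.67 in A2058 vemurafenib, and of 4.98, 4.83 and 4.94 in A375 DMSO, against 8.70, 8.67 and 8.60 in A2058 DMSO. The lines were far apart with either treatment, by -3.97 ± 0.070 with vemurafenib (15.6-fold lower in A375, adjusted p = 1.56e-13) and by -3.74 ± 0.070 with DMSO (13.3-fold, adjusted p = 3.74e-13), both log2 differences. SEMA6A was lower in A375 by a log2 difference of -3.15 ± 0.071 with vemurafenib (8.85-fold, adjusted p = 1.7e-12) and of -1.22 ± 0.071 with DMSO (2.33-fold, adjusted p = 1.58e-08). SEMA6D had log2 levels of 4.58, 4.36 and 4.42 in A375 vemurafenib, against 6.82, 6.93 and 6.55 in A2058 vemurafenib, and of 4.14, 4.43 and 4.26 in A375 DMSO, against 5.59, 6.11 and 5.76 in A2058 DMSO. Its log2 difference was -2.31 ± 0.13 with vemurafenib (4.97-fold, adjusted p = 1.03e-08) and -1.54 ± 0.13 with DMSO (2.91-fold, adjusted p = 5.5e-07). In A375, both SEMA5A and SEMA6D lay near the lower end of the scale, where signals are compressed, so their folds between the lines are imprecise.

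Other genes differed between the lines with both treatments. NRP1 was lower in A375, by log2 differences of -1.06 ± 0.076 with vemurafenib and -1.76 ± 0.076 with DMSO. SEMA7A (1.38 ± 0.058 and 1.31 ± 0.058), SEMA3A (1.32 ± 0.11 and 0.96 ± 0.11) and SEMA4B (1.11 ± 0.066 and 1.17 ± 0.066) were higher in A375 with vemurafenib and with DMSO on the log2 scale. PLXNC1, PLXNA1 and PLXNB3 were not called with DMSO, with log2 differences of 0.01 to 0.11, and differed with vemurafenib by -1.95 ± 0.063, -1.36 ± 0.055 and 1.05 ± 0.044. With DMSO, the A375 arrays of PLXNA1 and PLXNB3 still all lay above those of A2058. Array weights called both there (limma adjusted p = 0.0371 and 0.0101), and PLXNB3 was also called without A2058 DMSO replicate 2 (0.0164). SEMA3C was higher in A375 with vemurafenib (log2 difference 1.51 ± 0.077) and lower in A375 with DMSO (-0.60 ± 0.077). For SEMA4D, the probe sets disagreed. The one used gave a log2 difference of 0.67 ± 0.083 with vemurafenib and 0.51 ± 0.083 with DMSO. The other gave -0.24 ± 0.054 and -0.12 ± 0.054, so beyond the counts above no direction is given for this gene. SEMA3G was called with vemurafenib (0.27 ± 0.094, log2, adjusted p = 0.0349), but its arrays overlapped between the lines, and the call ended with the compared groups alone (0.0956) or on leaving out the first A375 vemurafenib array (0.112) or A2058 vemurafenib replicate 1 (0.146) or 2 (0.0795).

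**Figure D4:**
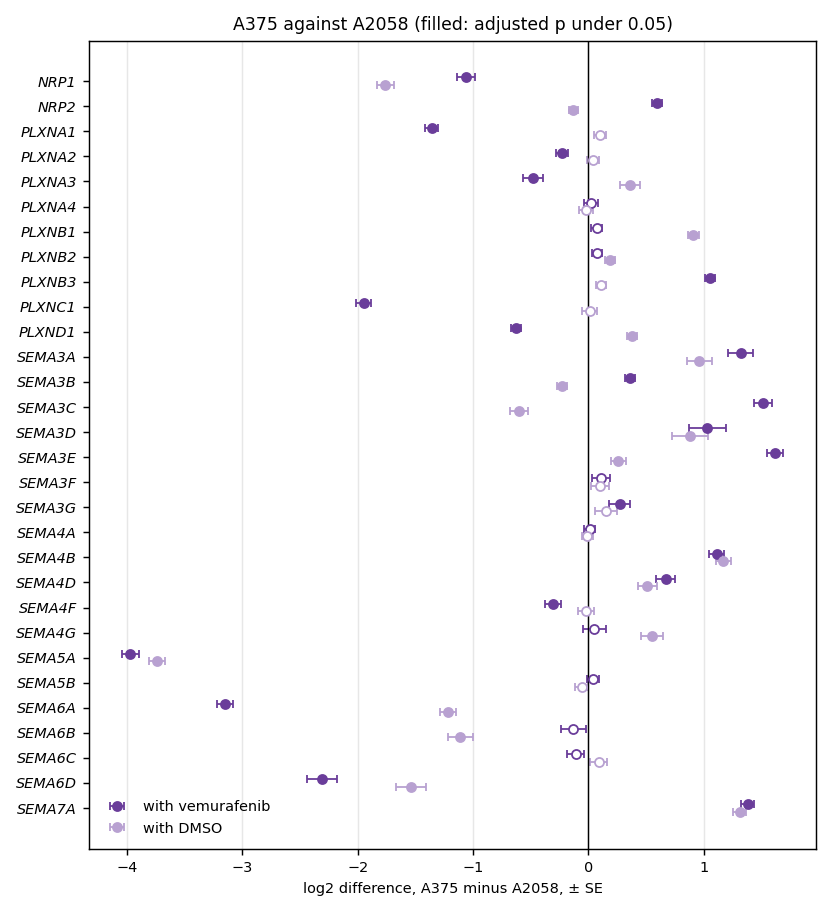
Log2 difference ± SE of each gene between the lines, A375 minus A2058, with vemurafenib (dark) and with DMSO (pale); filled points have an adjusted p under 0.05. SEMA5A lies at -3.97 and -3.74, and PLXNC1, PLXNA1 and PLXNB3 are called with vemurafenib and not with DMSO.

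Further genes of the pathway came from lists written from general knowledge. Transducers and co-receptors of semaphorin signals were represented by 31 measured genes. In A375, 7 of them rose and 13 fell, with a median log2 change of -0.030, and in A2058, 7 rose and 10 fell, with a median of 0.046. These are 64.5% called in A375, against 37.0% of all genes, and 54.8% in A2058, against 27.1%. FARP1 fell most in A375 (log2 change -2.11 ± 0.045, adjusted p = 1.35e-12; -0.32 ± 0.045 in A2058), followed by the receptor kinase MET, which associates with class B plexins (-1.07 ± 0.063), and the kinase GSK3B (-1.02 ± 0.063). MICAL1, an enzyme that oxidises actin downstream of class A plexins, had log2 levels of 7.34, 7.50 and 7.35 in A2058 vemurafenib, against 5.69, 5.81 and 5.79 in A2058 DMSO. It rose in A2058 (log2 change 1.63 ± 0.060, 3.1-fold, adjusted p = 7.41e-10) and fell in A375 (-0.40 ± 0.060, adjusted p = 0.000143), a difference of -2.03 ± 0.085 (adjusted p = 2.21e-09). L1CAM, an adhesion molecule that binds NRP1, rose in A2058 (1.25 ± 0.071), and RND3 fell there (-2.29 ± 0.072). The adhesion molecules CHL1 and NRCAM rose in A375 (log2 changes 0.63 ± 0.079 and 0.31 ± 0.051) and fell in A2058 (-0.71 ± 0.079 and -0.70 ± 0.051).

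VEGF ligands and receptors, which share the neuropilins, were called in 4 of 7 cases in A375 (2 up, 2 down; median log2 change -0.092) and in 5 of 7 in A2058 (1 up, 4 down; median -0.24), which is 57.1% in A375, against 37.0% of all genes, and 71.4% in A2058, against 27.1%. VEGFA, which binds NRP1, had log2 levels of 6.80, 6.72 and 6.68 in A2058 vemurafenib, against 8.55, 8.77 and 8.70 in A2058 DMSO. It fell in both lines, by a log2 change of -1.94 ± 0.064 in A2058 (adjusted p = 2.69e-10) and of -0.57 ± 0.064 in A375 (adjusted p = 1.01e-05), and its receptor FLT1 fell in A2058 (-1.48 ± 0.077) and rose in A375 (0.43 ± 0.077). Of 4 proteases known to cut semaphorins, 2 rose and 1 fell in A375 and 1 rose and 1 fell in A2058 (median log2 changes 0.19 and 0.074), where 37.0% and 27.1% of all genes were called; FURIN, which processes class 3 precursors, fell in both lines (-0.84 ± 0.052 and -0.61 ± 0.052).

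The slit, netrin and repulsive guidance list holds other guidance cues and receptors. Its genes were called in 7 of 21 cases in A375, 4 up and 3 down (median log2 change 0.025). In A2058, 3 of 21 were called, each of them down (median -0.00096). These shares, 33.3% in A375 and 14.3% in A2058, were below the 37.0% and 27.1% of all genes called. The secreted ligand SLIT2 had log2 levels of 8.21, 8.66 and 8.51 in A375 vemurafenib, against 6.63, 6.43 and 6.59 in A375 DMSO. It rose there by 1.91 ± 0.10 on the log2 scale (3.76-fold, adjusted p = 1.24e-08), as did the slit receptors ROBO1 (1.54 ± 0.045) and ROBO2 (1.13 ± 0.066). Their responses differed from those of A2058 by 2.36 ± 0.15, 1.42 ± 0.063 and 1.45 ± 0.093, each called.

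**Figure D5:**
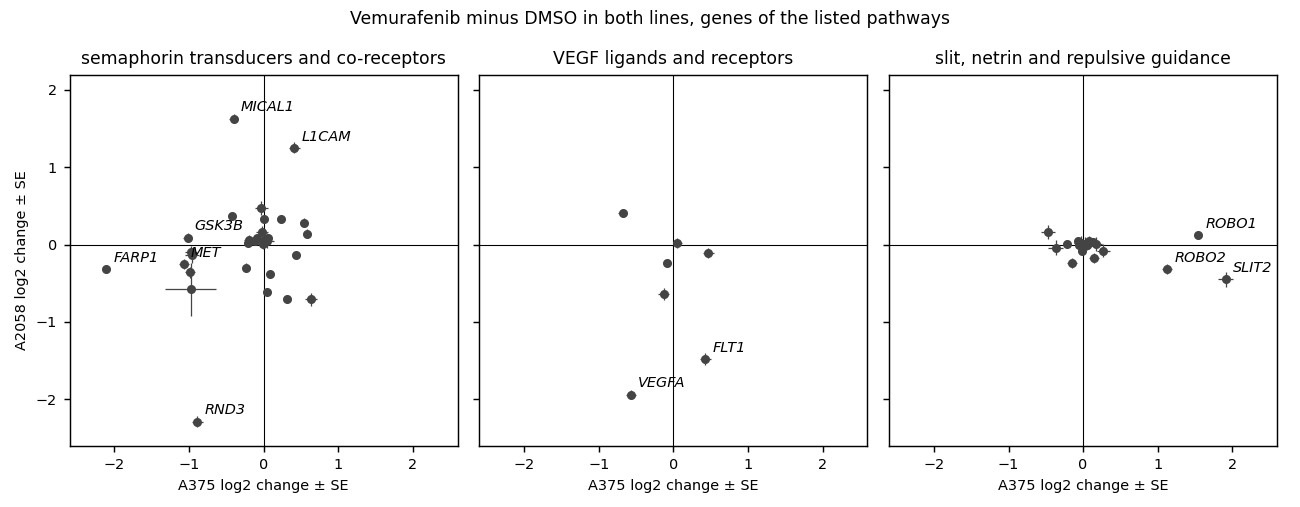
Log2 change ± SE with vemurafenib minus DMSO in A375 (x axis) against A2058 (y axis), 1 point per gene, for the lists of semaphorin transducers and co-receptors (left), VEGF ligands and receptors (middle) and slit, netrin and repulsive guidance genes (right). Genes at 1 or more from 0 in either line are named; MICAL1 lies at -0.40 in A375 and 1.63 in A2058.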

How the data were processed

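Expression was read from the log2 values per probe set that the authors deposited for 12 arrays; R 3.0.1 and affy are named per the submitters' processing notes, while for background correction and probe set summary the method is not given in the sources used here. Values ran from 3.24 to 13.08 over 32321 probe sets and were used without further scaling; dim signals are compressed, so their changes are understated, and 10 of the 30 genes lay below the median gene on all arrays. Arrays have no read depth, and their number limits the precision. Of the probe sets, 19158 had 1 symbol, 1388 several and 11775 none; Entrez numbers linked 19128 of these to current RefSeq symbols (GRCh38.p14). The 12 arrays entered 1 limma 3.58.1 fit (R 4.3.3) with 4 group means, 8 residual and 3.98 prior degrees of freedom; tests were two-sided, with Benjamini-Hochberg adjustment over 18404 genes for each of 5 contrasts. Of the steps, only the limma fit was tested on simulated data, with rises seeded in A375 vemurafenib. They were read in the A375 response and the difference of responses. The simulated spread of a gene was the same in all arrays, so a deviating array was not covered. Values in every array are given for genes changed at least 2-fold with vemurafenib or in the difference of responses and for both neuropilins, with a few more (SEMA3D, SEMA5A, SEMA6D, SEMA7A, and genes of the lists) added after their values were seen. Between the lines, genes differing at least 4-fold are named, and the others were likewise chosen after their values were seen. The genes, lists and receptor pairs were chosen with earlier results of these data known. Alternatives were a replicate block, leaving out each array, a filter on dim genes (mean of at least 5), quantile normalization, median centring, the mean of the probe sets, array weights, a trended robust fit, the compared groups alone and a threshold of 0.01.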

Additional observations from a re-analysis of the deposited data

Results flagged for a closer look

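The responses to vemurafenib of 17 of the 30 genes differed between the lines by the interaction term, given as the log2 response in A375 minus that in A2058. Higher responses in A375 were those of SEMA3C (2.10), SEMA3E (1.36), SEMA6B (0.98), PLXNB3 (0.94), NRP2 (0.72), NRP1 (0.70) and SEMA3B (0.60). For NRP1, SEMA3B and SEMA6B this means a smaller fall in A375 than in A2058. Higher responses in A2058 were those of PLXNC1 (-1.96), SEMA6A (-1.93), PLXNA1 (-1.46), PLXND1 (-1.01), PLXNA3 (-0.84), PLXNB1 (-0.84), SEMA6D (-0.77), SEMA4G (-0.49), SEMA4F (-0.29) and PLXNA2 (-0.27). For PLXNA3 and SEMA4G this means a called fall in A375 (log2 changes -0.94 and -0.54), with no call in A2058 (-0.10 and -0.05). In the text above, 3 of the 17 genes, PLXNA1, PLXND1 and SEMA6A, were called in opposite directions in the lines.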

How the results depend on the processing

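No count of genes called up, down or at least 2-fold moved by over 1.5 times in any of the 5 comparisons under the alternatives run, and no called gene changed sign. Of 88 calls of a gene in a comparison, 79 held under every alternative that gave a value, and 9 were lost under at least 1; of these, SEMA3B in A375 and SEMA4G in the difference of responses were lost at a threshold of 0.01 alone, and the others are given above, except NRP2 with DMSO (A375 minus A2058, -0.13; adjusted p = 0.0523 with quantile normalization and 0.0579 to 0.0979 without A2058 DMSO replicate 2 or A375 DMSO replicate 1 or 2) and PLXNA2 in the difference of responses (adjusted p = 0.0541 with the replicate block). Without each array in turn, the genes called up ran from 5 to 6 in A375 and from 8 to 11 in A2058, those called down from 10 to 12 in A375, with 5 in A2058 each time. Over the same fits, 6044 to 7785 of all genes were called in A375 and 4172 to 5952 in A2058. Calls gained without A375 vemurafenib replicate 1 included SEMA4F in A375 (-0.23, adjusted p = 0.00134) and, in the difference of responses, SEMA3D (0.40, 0.0152), SEMA5A (-0.29, 0.0247) and SEMA6C (-0.29, 0.0116); PLXNB1 in A375 passed without A375 DMSO replicate 2 (0.00818). Array weights gave A375 vemurafenib replicate 1 the lowest weight (0.149), and called 6 up and 13 down in A375. With these weights 8127 of all genes were called there, against 6816 in the main fit. The labels number replicates 1 to 3 in each group without saying that a number pairs samples. Same-numbered arrays did not deviate together (r = -0.20, 0.10 and -0.13 in A375, 0.025, -0.027 and -0.20 in A2058), so the block is given as an alternative only. The block fit called 5 up and 11 down in A375 (6431 of all genes called) and 10 up and 5 down in A2058 (4522 of all genes). In the difference of responses it called 7 up and 8 down (4934 of all genes). There SEMA4F was also lost (adjusted p = 0.105), as was SEMA3G between the lines with vemurafenib (0.0564). The filter on dim genes removed PLXNA2, PLXNA4, SEMA3E, SEMA4A and SEMA6C, whose calls therefore have no value under it, and the difference of responses, which needs all groups, has none for the compared groups alone.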
